A study of Capra hircus with 10 samples.

Results

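The cluster of miR-183, miR-96 and miR-182 consists of 3 neighbouring miRNA hairpins, whose products were followed here in the lactating mammary gland of Alpine goats. The rows were chosen by name, dropping the species prefix, and 6 of the 1804 miRNA in the deposited count tables belong to these hairpins: a 5p and a 3p miRNA from each. Small RNA was sequenced from the gland of 10 goats, 1 library per goat. The animals were 48 ± 2 days past kidding, around the peak of milk yield, when the experiment began. Of these, 4 libraries (Control: L01, L04, L06, L10) came from goats that ate a hay-based diet ad libitum, while 6 libraries (FD: L02, L03, L05, L07, L08, L09) came from goats that had eaten the same diet for 2 weeks and were then food deprived for 48 h before slaughter. According to the paper, goats alike in milk yield, lactation number and α-S1-casein genotype were chosen, and the genotype itself is not given. The samples were whole tissue, so that fewer cells of a type and less RNA per cell cannot be told apart.

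In vertebrates the 3 hairpins are usually cut from 1 shared primary transcript, and the cluster is best known from sensory epithelia, where it is needed for hair cells and photoreceptors. It is also found in other epithelia and in mammary tumours, where the 5p miRNA of the cluster are known to act on FOXO1, a transcription factor that restrains growth. A miRNA finds its targets mainly through its seed, bases 2 to 8 counted from the 5′ end, so that miRNA with equal seeds are expected to share many targets. In the RefSeq gene table of the goat assembly ARS1.2, all 3 genes were matched by symbol, and MIR183 (gene ID 104797247), MIR96 (104796273) and MIR182 (104797516) follow each other in this order with no other gene between them. They lie between UBE2H, which encodes a ubiquitin-conjugating enzyme, and NRF1, which encodes a transcription factor of mitochondrial genes. The authors mapped their reads to another build, CHIR_1.0, so no position of these genes is given.

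The deposited mature sequences are shown because the seeds of the 5p miRNA are close to each other without being equal. They are written 5′ to 3′ with the seed in capitals.
miR-182-5p: tTTGGCAAtggtagaactcac
miR-183-5p: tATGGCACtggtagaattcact
miR-96-5p: tTTGGCACtagcacatttttg
miR-183-3p: gTGAATTAccgaagggccataa
miR-182-3p: gTGGTTCTagacttgccaact
miR-96-3p: aATCATGTgcagtgccaatatg
The 5p sequences carry goat names in the files, while the 3p sequences are listed under mouse names for miR-183-3p and miR-182-3p and under a human name for miR-96-3p.

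Over the 21 bases that can be set side by side from the 5′ end, miR-182-5p and miR-183-5p are the same at 18. They differ by T2A, A8C and C17T, where the base of miR-182-5p comes first, then the position, then the base of miR-183-5p. The seed of miR-96-5p differs from that of miR-182-5p by A8C, written in the same way, and the seed of miR-183-5p differs from that of miR-96-5p by A2T, with the base of miR-183-5p first. Each pair of 5p seeds thus shares 5 or 6 of 7 bases, and none of the 5p miRNA has the seed of another.

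Among all 1804 miRNA, 3 others carry the seed of a 5p member. They are shown because they are the miRNA of these libraries with which miR-96-5p and miR-182-5p share a seed.
miR-1271-5p: cTTGGCACctagtaagtact
chrX_39966-3p: aTTGGCACgtcttggaatgc
chr4_5410-5p: tTTGGCAAagtgacacctctggt
The first 2 have the seed of miR-96-5p and the last has that of miR-182-5p. On CHIR_1.0, the hairpin that the authors predicted for chrX_39966-3p spans chrX:49314290-49314346 (minus strand), and that for chr4_5410-5p spans chr4:23037032-23037111 (plus strand). Their reads over all libraries were few, 18 for chrX_39966-3p and 3 for chr4_5410-5p. No other miRNA of the tables had the seed of miR-183-5p or of any of the 3p members.

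The cluster was a small part of the mammary miRNome. Its 6 miRNA together took between 0.0605% and 0.177% of the counts of a library (median 0.0985%, n = 10), with a mean of 0.0951% ± 0.0378 (SD, n = 4) for Control goats, and 0.110% ± 0.0354 (SD, n = 6) for FD goats. Library totals ran from 4495512 to 9842009 counts, so the cluster's smallest sum over a library was 3128 reads, in L01. Lists of miRNA named for secretory and epithelial cells stood at much higher levels, though which cells carried them was not tested. The summed normalized counts of the arms of miR-148a and miR-30a, abundant in lactating gland, ran from 1189967 to 2277842. Those of 12 miRNA of the miR-200, miR-205 and miR-184 families, the epithelial list, ran from 173961 to 245827. Normalized counts of miR-182-5p, the most abundant member, ran from 3317 to 9132.

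MiR-182-5p was the main product of the cluster. It gave between 84.9% and 89.2% of the cluster's counts in each library, against 10.1% to 14.3% for miR-183-5p and 0.585% to 1.02% for miR-96-5p. Normalized counts, which are counts divided by the size factor of the library, averaged 5924 ± 1941 (SD, n = 10) for miR-182-5p, 797 ± 273 for miR-183-5p and 55.1 ± 20.7 for miR-96-5p. These means put them at places 61, 140 and 343 among all miRNA. Each mature miRNA is read whole, so no correction for length was made, and the order of levels is an order of reads, in which the part of adapter ligation was not tested. In every library miR-182-5p exceeded miR-183-5p, by 7.44-fold on average (5.93 to 8.82), and miR-183-5p exceeded miR-96-5p by 14.2-fold (9.8 to 19.7). The next in order was miR-183-3p, which miR-96-5p exceeded 13.2-fold in 10 of 10 libraries, on the scale of normalized count + 1. For each of these 3 neighbouring pairs, a two-sided exact sign-flip permutation test over the 10 libraries gave p = 0.00195, the smallest value this test can give. The order of the pairs was taken from the means of these same libraries, so this p is no separate support for it. MiR-182-3p and miR-96-3p stood last with 1 read each and could not be ranked against each other.

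In Control libraries, miR-182-5p had 3317 normalized counts in L04, 3833 in L01, 6082 in L06 and 8811 in L10. In FD libraries, its lowest value was 4267 in L02, the median 5747 and the highest 9132 in L08. L04 and L01 lay below every FD library, and the highest library of each diet stood well above the rest of its group. The mean was 5511 ± 2506 (SD, n = 4) for Control goats, and 6200 ± 1668 (SD, n = 6) for FD goats. The edgeR log2 fold change (FD over Control) was 0.16 with a standard error of 0.280 and a 95% interval from -0.45 to 0.76, which is 0.731-fold to 1.70-fold. Its p adjusted over the 490 miRNA tested was 0.788.

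MiR-183-5p had the same 2 libraries at the top and the same 2 at the bottom. Control values were 442 in L01, 558 in L04, 818 in L06 and 1267 in L10, and FD values went from 580 in L02 over a median of 734 to 1221 in L08. L01 and L04 again lay below every FD library, while the highest library of all, L10, was a Control. The log2 fold change was 0.062 (standard error 0.297, 95% interval -0.58 to 0.71), and the adjusted p from edgeR was 0.919.

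MiR-96-5p was counted least, with between 29 and 109 reads per library. Its normalized counts in Control libraries were 30.4 in L04, 40.6 in L06, 44.2 in L01 and 103 in L10, while FD libraries ran from 45.9 in L02 over a median of 51.4 to 73.0 in L05. Of the Control libraries, 3 lay below every FD library and L10 lay above them all. The log2 fold change was 0.0021 (standard error 0.314, 95% interval -0.68 to 0.68, adjusted p = 0.999 in edgeR's quasi-likelihood test). The 3 members tested passed a filter that asked for a highest normalized count above 28.

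**Figure D1:**
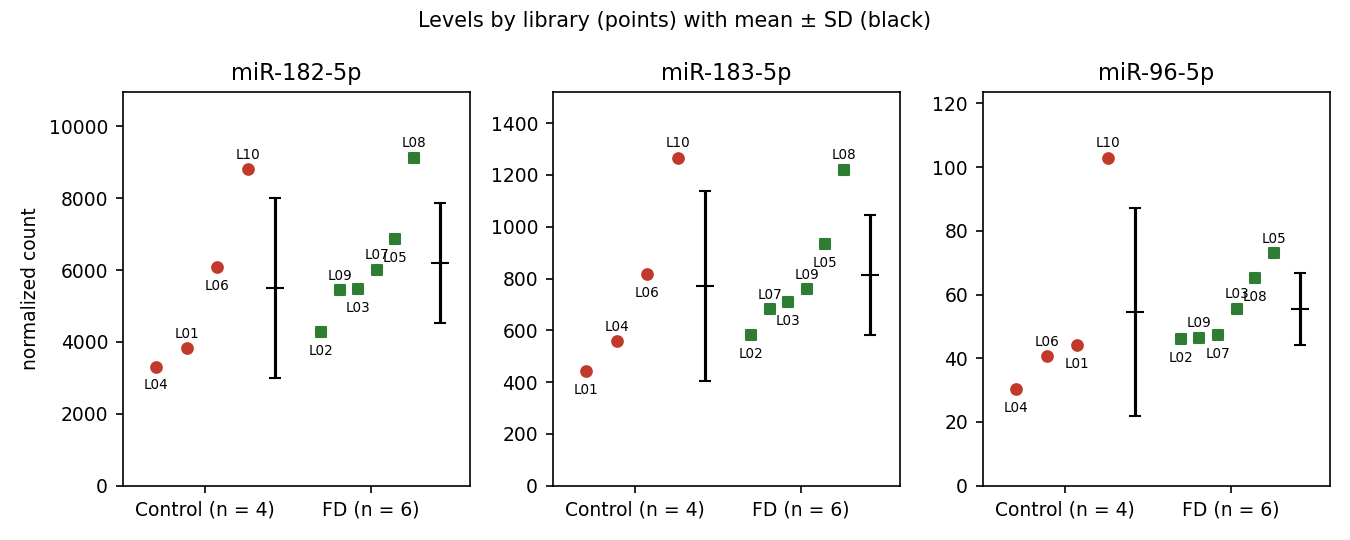
Normalized counts (y axis, linear, starting at 0, a separate scale per panel) of miR-182-5p, miR-183-5p and miR-96-5p in the 4 Control (red circles) and 6 FD libraries (green squares), each point labelled with its library, with mean ± SD in black. In each panel the Control library L10 stands far above the other Control libraries, and the ranges of the diets overlap.

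The background for these values is that edgeR's quasi-likelihood test gave an adjusted p under 0.1 to 0 of 490 miRNA (0%), while 77 (15.7%) had an unadjusted p under 0.05. None of the 3 members tested had either. DESeq2 gave an adjusted p under 0.1 to 27 miRNA (5.51%) and limma-voom to 0, in both cases with no member among them. The ranges of the diets did not overlap for 11 of 490 miRNA (2.24%), again with no member. The intervals of the members reach from 0.624-fold to 1.70-fold, and differences within them were not detectable with these goats. Without Control library L10 the log2 fold changes were 0.43 for miR-182-5p, 0.36 for miR-183-5p and 0.48 for miR-96-5p, with adjusted p of 0.365, 0.464 and 0.266 in edgeR's test.

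Levels of the cluster differed between goats, also within a diet. Over both diets together, the highest library exceeded the lowest 2.75-fold for miR-182-5p, 2.87-fold for miR-183-5p and 3.38-fold for miR-96-5p. Within diets, the SD of log2 normalized counts was 0.49, 0.51 and 0.50, against a median of 0.34 over the 490 miRNA tested. A larger SD was found for 122, 109 and 110 of these 490 miRNA. Among the 160 miRNA with a mean of at least 500, the median SD was 0.24, and 17 had a larger SD than miR-182-5p and 16 a larger one than miR-183-5p. Counting error alone would give an SD of about 0.02 for miR-182-5p, 0.055 for miR-183-5p and 0.21 for miR-96-5p, so it is a minor part of the spread of the first 2 and a larger part for miR-96-5p.

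The 5p miRNA of the cluster rose and fell together from goat to goat. Across the 10 libraries, the Pearson correlation of log2(normalized count + 1) was 0.945 between miR-182-5p and miR-183-5p (two-sided permutation test with 100000 resamples, p = 0.00015, adjusted over the 3 pairs 0.00045) and Spearman's rho was 0.927 (permutation p = 0.00046, adjusted 0.00138). Between miR-182-5p and miR-96-5p it was 0.823 (permutation p = 0.00357, adjusted 0.00535), with a rho of 0.770 (permutation p = 0.0128, adjusted 0.0172). Between miR-183-5p and miR-96-5p it was 0.778 (permutation p = 0.00835, adjusted 0.00835), with a rho of 0.745 (permutation p = 0.0172, adjusted 0.0172). For the first pair, L08 and L10 were high and L01 and L04 low in both miRNA.

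With the 2 libraries most distant from the median left out, the correlations were 0.970 (without L04 and L08), 0.771 (without L04 and L08) and 0.561 (without L08 and L10). Their adjusted permutation p-values were 0.00111, 0.0378 and 0.141, so the relation of miR-183-5p with miR-96-5p was weaker without L08 and L10 and did not pass 0.05. After each diet's mean was subtracted the correlations were 0.947, 0.818 and 0.772, with adjusted permutation p-values of 0.00402, 0.0129 and 0.0332 from permutations within diets. Within the 6 FD libraries alone they were 0.959, 0.741 and 0.791, with adjusted permutation p-values of 0.0260, 0.0696 and 0.0696, while Spearman's rho was 0.771, 0.886 and 0.771 (adjusted permutation p-values 0.104, 0.10 and 0.104), so no pair passed 0.05 by rank within FD. The 4 Control libraries are too few for a test. The 3 miRNA were counted in the same libraries and scaled by the same size factors.

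**Figure D2:**
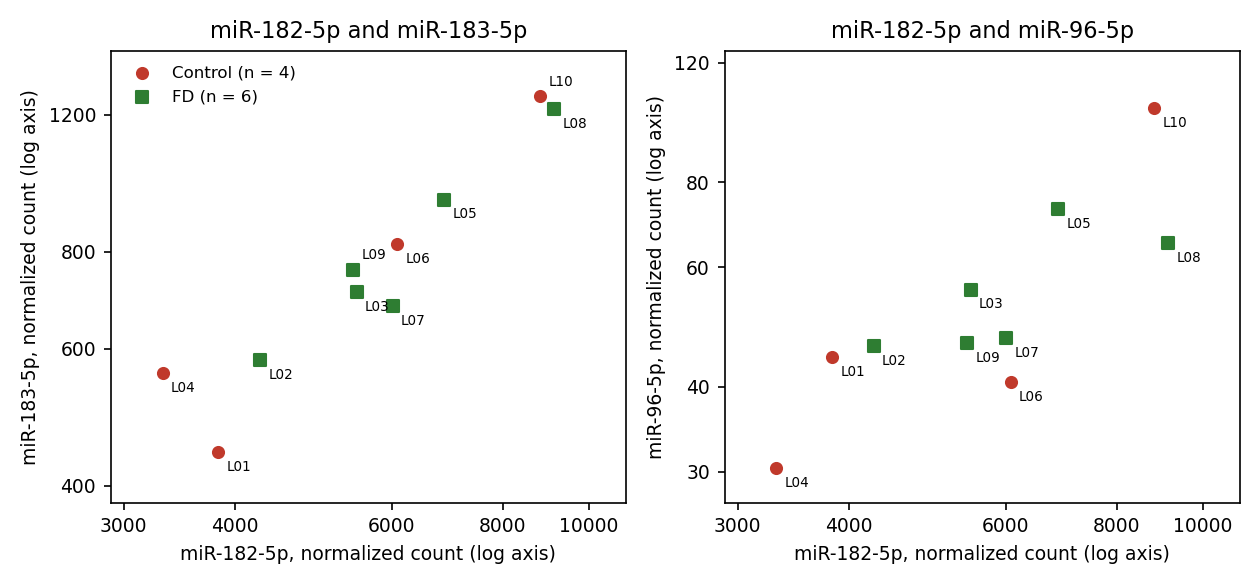
Normalized counts of miR-182-5p (x axis, log scale) against miR-183-5p (left) and miR-96-5p (right; y axes, log scale) in the 4 Control (red circles) and 6 FD libraries (green squares), each point 1 goat. The points of both diets run along a common rising line, closely for miR-183-5p (r = 0.945) and more loosely for miR-96-5p (r = 0.823).

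The ratios between members depend neither on library size nor on scaling, and they varied less than the levels. This smaller spread follows from the correlations above and is no separate support for them. MiR-182-5p had between 5.94 and 8.83 reads per read of miR-183-5p (median 7.40), a 1.49-fold range over goats whose levels spanned 2.75-fold. The SD of this ratio on the log2 scale was 0.16, against 0.48 for the level of either miRNA over the 10 libraries. Per read of miR-96-5p there were 85.8 to 150 reads of miR-182-5p, with an SD of 0.29 on the log2 scale. Those of miR-183-5p ran from 10 to 20.1 per read of miR-96-5p, with an SD of 0.33. The ratios of Control and FD libraries overlapped for each pair. For miR-182-5p over miR-183-5p, the mean was 7.25 ± 1.13 (SD, n = 4) under the Control diet, and 7.66 ± 0.604 (SD, n = 6) under food deprivation.

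When all other 489 miRNA tested were ranked by their correlation with miR-182-5p over the 10 libraries, miR-183-5p took place 1 and miR-96-5p place 2. From miR-183-5p, miR-182-5p stood at place 1 and miR-96-5p at place 4, and from miR-96-5p, miR-182-5p stood at place 2 and miR-183-5p at place 5. Outside the cluster, the 5 miRNA most like miR-182-5p were chr18_24690-5p (r = 0.806), miR-16b-5p (0.748), miR-361-3p (0.724), miR-221-5p (0.722) and miR-361-5p (0.712). These were picked as the highest of 487 values over the same libraries, so their correlations describe these goats and carry no test. The predicted miRNA chr18_24690-5p, with 5 to 32 reads per library, also headed the ranking from miR-96-5p (r = 0.907).

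The miR-200 family, which keeps epithelial cells epithelial by acting on ZEB1 and ZEB2, was set beside the cluster as a group of miRNA known from epithelial cells. MiR-141-3p had 123668 normalized counts on average and exceeded miR-182-5p 21.8-fold (10.2 to 38.6), with an SD within diets of 0.18 on the log2 scale. For the 8 miR-200 family miRNA tested, the correlation with miR-182-5p lay between -0.63 for miR-429-3p and -0.23 for miR-200a-3p. With the summed epithelial list, miR-182-5p had a correlation of -0.374 (permutation p = 0.288, adjusted over 7 relations 0.776; Spearman's rho -0.212, permutation p = 0.562, adjusted 0.866), and -0.0164 without L04 and L08. The other 6 relations in this group, with the library total and with the stromal, endothelial, leukocyte, erythroid and secretory lists, had adjusted permutation p-values of 0.776 or more.

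These pooled values join goats that differ. The 2 libraries with the most miR-182-5p stood at opposite ends of the epithelial and secretory lists. L08 had the lowest epithelial sum (173961) and the lowest secretory sum (1189967) of all 10 libraries, and L10 had the highest of both (245827 and 2277842). Within the 6 FD libraries alone, miR-182-5p had a correlation of -0.851 with the epithelial sum (permutation p = 0.0264, adjusted over 7 relations 0.0925) and of -0.868 with the secretory sum (permutation p = 0.0168, adjusted 0.0925). Spearman's rho was -0.829 (permutation p = 0.0581, adjusted 0.407) and -0.600 (permutation p = 0.242, adjusted 0.566). Without L08, a choice made after the values were seen, the Pearson correlations over the other 5 FD goats were -0.613 and -0.681. In the 4 Control libraries they had the opposite sign, 0.896 with the epithelial and 0.992 with the secretory sum. The values over 5 and 4 goats are given as a description with no test.

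All 8 tested miR-200 family miRNA had log2 fold changes below 0, with a median of -0.23, and 0 of 8 passed the adjusted threshold in edgeR's test. The 3 members had a median of 0.062, and the median over all 490 miRNA was about 0. The 2 families were compared only through the most abundant miRNA of each, so the test cannot speak for the families as a whole. Of the 8, miR-141-3p had the log2 fold change closest to 0, at -0.11. The log2 ratio of miR-182-5p to miR-141-3p was -4.65 ± 0.63 (SD, n = 4) for Control goats, and -4.31 ± 0.56 (SD, n = 6) for FD goats. For the difference of 0.34, a two-sided exact permutation test gave p = 0.390, so no difference between diets was detected with these goats. Single libraries moved this difference, to 0.14 without L04, 0.15 without L08, 0.21 without L01 and 0.60 without L10 (exact permutation p = 0.119).

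**Figure D3:**
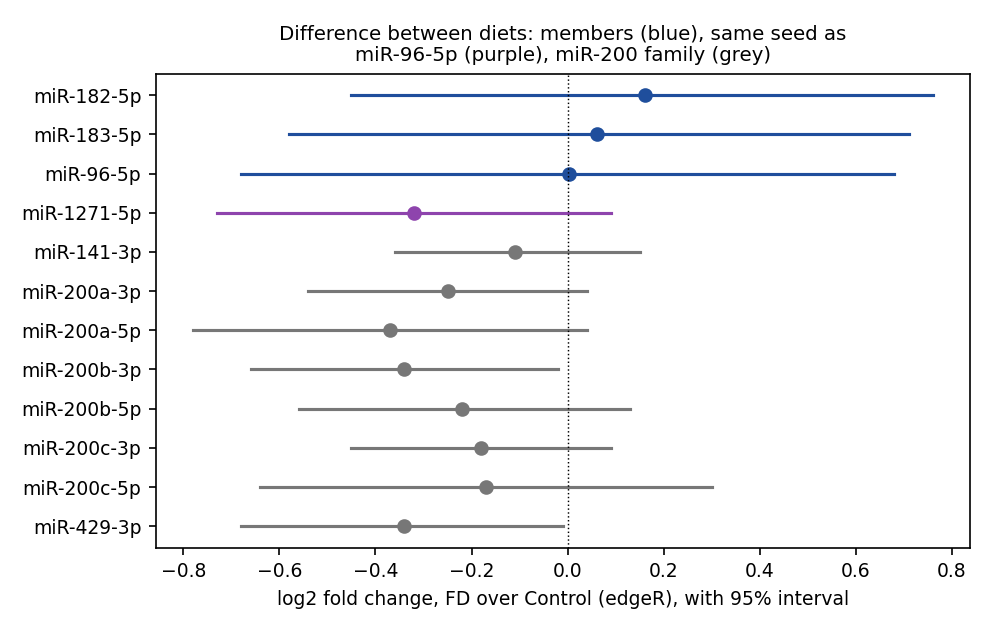
Log2 fold change of FD over Control (x axis) from edgeR with its 95% interval for the 3 members tested (blue), miR-1271-5p, which has the seed of miR-96-5p (purple), and the 8 tested miRNA of the miR-200 family (grey). The members lie between 0.0021 and 0.16 and have the widest intervals, and none of the 12 passed the adjusted threshold of 0.1.

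MiR-1271-5p comes from a hairpin outside the cluster and was the more abundant carrier of the seed TTGGCAC. It exceeded miR-96-5p in 10 of 10 libraries, 2.01-fold on average, with a two-sided exact sign-flip permutation p of 0.00195. Of the reads with this seed, miR-96-5p gave a median of 34.6%, from 20.1% in L04 to 46.9% in L10. The mean normalized count of miR-1271-5p was 122 ± 17.8 (SD, n = 4) for Control goats, and 99.1 ± 22.4 (SD, n = 6) for FD goats. Its log2 fold change of -0.32 (95% interval -0.73 to 0.09) had an adjusted p of 0.429 from edgeR. Its correlation with miR-182-5p over the 10 libraries was 0.23, and that of miR-96-5p was 0.823.

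Nearly all reads of the cluster came from the 5p side of the hairpins. For mir-182 there were 64595 reads of the 5p and 1 of the 3p miRNA over all libraries, a 3p share of 0.00155% (95% exact Clopper-Pearson interval 3.92e-05% to 0.00863%). For mir-96 there were 586 and 1, a share of 0.170% (0.00431% to 0.945%). In both cases the single 3p read came from L04, and the other 9 libraries had 0. For mir-183 the 3p miRNA was seen in all 10 libraries, with 1 to 10 reads each and 36 against 8670 in all, a share of 0.414% (0.290% to 0.572%). The intervals of mir-182 and mir-183 do not overlap. These intervals cover counting error only, and amplified copies could not be told from separate molecules.

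Among the 184 hairpins with 1 listed miRNA on each side and at least 1000 reads, the median share of the minor side was 1.68%. Mir-182 (0.00155%) and mir-451 (0.00156%) had the lowest shares, each with a single minor read, so their order is not resolved, and mir-183 stood at place 58. Mir-96 had too few reads to be ranked. The 3p rows of the cluster carry mouse and human sequences, as did the minor miRNA of 39 of the 184 hairpins (21.2%) and of 4 of the 10 with the lowest shares, and whether goat 3p reads were missed for a difference from these sequences was not tested.

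**Figure D4:**
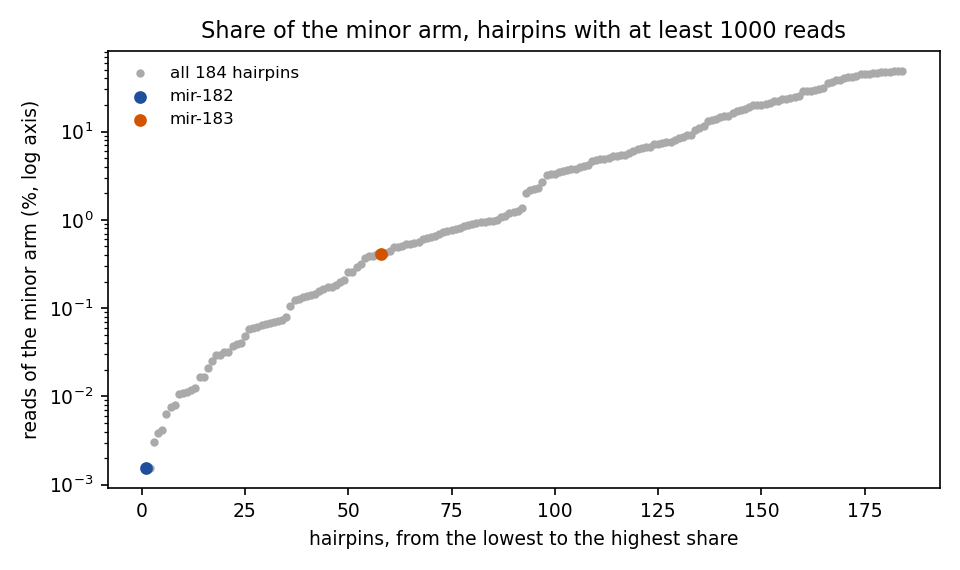
Share of reads from the minor side (y axis, percent, log scale) for 184 hairpins with at least 1000 reads over all 10 libraries, sorted from the lowest to the highest (x axis). Mir-182 (blue) is at the bottom with 0.00155%, next to mir-451, and mir-183 (orange) is at 0.414%, below the median of 1.68%.

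The 3p share of mir-183 was 0.929% in L01, 0.175% in L04, 0.849% in L06 and 0.302% in L10, and ran from 0.184% in L02 to 0.488% in L08 in FD libraries. Its mean was 0.564% ± 0.380 (SD, n = 4) for Control goats, and 0.352% ± 0.115 (SD, n = 6) for FD goats. With so few reads each library's own interval is wide, for example 0.192% to 2.69% in L01. For the difference between diets, a two-sided exact permutation test gave p = 0.238, where the smallest possible p is 0.00476. The 5p share was thus higher in FD by 0.212 percentage points, a difference that came to 0.0901 without L01, 0.117 without L06, 0.341 without L04 and 0.0735 when counts were summed per diet. The level of miR-183-3p, 3.99 ± 2.46 normalized counts (SD, n = 4) for Control goats and 3.05 ± 1.72 (SD, n = 6) for FD goats, had p = 0.552 in the same exact permutation test on log2(normalized count + 1). MiR-183-3p, miR-182-3p and miR-96-3p did not reach the filter of 28 and were not part of the test across all miRNA.

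Markers of other cell types were set beside these values. Of 5 lists named for epithelial, stromal, endothelial, leukocyte and erythroid cells, the stromal list had 6 of 8 tested miRNA above 0 (median log2 fold change 0.28), the leukocyte list 6 of 7 (0.67) and the erythroid list 3 of 3 (0.33). The endothelial list, both arms of miR-126, had 2 of 2 above 0 (0.34), and the epithelial list 3 of 11 (-0.18). No miRNA of these lists passed the adjusted threshold in edgeR's test. The summed leukocyte list ran from 35952 to 68420 normalized counts in Control and from 42674 to 132239 in FD libraries. Most of this sum was mir-146b, with 566351 reads over all libraries, against 61439 for mir-155 and 4994 for mir-223. MiR-142, also named for this list, was not found. Other names not found were miR-203, miR-203a, miR-203b and miR-375 for the epithelial list, and miR-451a and miR-486 for the erythroid list. Of the 11 epithelial miRNA tested, 8 were of the miR-200 family. Over the 10 libraries, the correlation of miR-182-5p with the summed leukocyte list was -0.322 (permutation p = 0.367, adjusted over 7 relations 0.776). Any further part of this list in the values of the cluster was not tested.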

How the data were processed

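Counts are the authors' deposited reads per mature miRNA. Per the study's methods, adapters were trimmed by Cutadapt and the authors kept reads of 17 to 28 nt, mapped them to CHIR_1.0, counted them with the quantifier of miRDeep2 on miRBase and predicted hairpins and removed redundant names. CASAVA 1.8.2 is named in the submitters' processing notes. The miRDeep2 score column deposited by the authors was computed on all reads together; from that table only the positions of predicted hairpins are printed. The deposited columns of normalized counts were not used. The labels name no batch, and each library is 1 goat.

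Size factors are medians of ratios over those of the 1804 miRNA that had a count above 0 in every library (0.714 to 1.67). The miRNA with a highest normalized count above 28 were tested in edgeR 4.0.16 (R 4.3.3; TMM, glmQLFit and glmQLFTest, Benjamini-Hochberg, threshold 0.1, no covariates), with DESeq2 1.42.0 and limma 3.58.1 as alternatives, all tested on simulated data. The standard error is the log2 fold change divided by the square root of F. Single values were compared by exact permutation over the 210 ways to assign the diets, and correlations with 100000 permutations (scipy 1.17.1). Named are all members, the miRNA with a member's seed, the miR-200 family and the 5 miRNA most correlated with miR-182-5p. The members, lists and tests were chosen with earlier results of these data known, and the comparison with miR-141-3p, that with miR-1271-5p and the ranking of minor arms after the values were seen. No pair of libraries within a diet agreed within sampling noise (chi-square over degrees of freedom 102 to 815).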

Additional observations from a re-analysis of the deposited data

Results flagged for a closer look

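The ratio of miR-182-5p to miR-183-5p in FD library L07 was 8.83 reads per read, against 7.17 to 7.73 in the other 5 FD libraries, and its gap to the next value was large for a group of 6. It was the 1 value that stood out in this way among 20 groups of values examined, and chance alone gives about 1 in 20. Control library L01, at 8.67, was close to it.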

How the results depend on the processing

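No alternative gave an adjusted p under 0.1 to a member. DESeq2 called 27 miRNA, no filter on low counts 5 (miR-204-5p, miR-223-3p, scaffold986_36329-3p, miR-184-3p and chr3_3319-5p, named after their values were seen) and the omission of single libraries 0 to 1 (miR-204-5p without L02). Unadjusted p under 0.05 was found for 178 miRNA without a filter and for 46 to 97 with 1 library left out, 46 of them without L01 or L08 and 50 without L06. The direction of the members' differences between diets was not stable. With 1 library left out, edgeR's log2 fold changes ran from -0.056 to 0.43 for miR-182-5p, from -0.16 to 0.36 for miR-183-5p and from -0.21 to 0.48 for miR-96-5p. They fell below 0 without L04 or L08 for miR-182-5p, without L01, L04 or L08 for miR-183-5p, and without L01, L04, L05, L06 or L08 for miR-96-5p. For miR-183-3p another measure was used, the difference of the diets' means of log2(normalized count + 1). It ran from -0.64 to 0.035 and rose above 0 without L06. MiR-96-5p was also below 0 with upper quartile scaling (-0.053) and with a highest normalized count above 100 (-0.026). Leaving out L08 and L10 for all pairs was chosen after the values were seen. The correlation of miR-183-5p with miR-96-5p was then 0.561, with an adjusted permutation p of 0.141. With 1 library left out the 3 correlations ran from 0.926 to 0.977, 0.744 to 0.876 and 0.665 to 0.837, each with an adjusted permutation p under 0.05. The order of the levels held in each alternative run, and the exact p for the 3p share of mir-183 stayed between 0.119 and 0.595 with 1 library left out. No paired analysis was possible because the 2 diets were given to different goats, with 1 library per goat.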
